A study of Drosophila melanogaster with 4 samples.

Results

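Hairy-bound chromatin was described across the Antennapedia complex, the cluster of homeobox genes on the right arm of the third chromosome (3R) of Drosophila melanogaster that holds lab, pb, zen, bcd, Dfd, Scr, ftz and Antp. Its members were the peaks of the deposited Hairy peak list whose midpoints lay on 3R from 2480001 to 2840000 (Release 5), a window of 360 kb that runs from lab through Antp. The window held 52 peaks, of 1971 on 3R and 8958 in the list. It was set by position alone, so no peak was taken in or left out for its score or its width.

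The list came from chromatin immunoprecipitation and sequencing of whole embryos, with 2 libraries of Hairy ChIP DNA and 2 libraries of input DNA. The antibody, KW3-h-D1, was a rabbit polyclonal serum against part of the Hairy protein. All 4 libraries came from embryos fixed for 15 min in 1.8% formaldehyde. The embryos were of unknown sex and of the strain labelled Y cn bw sp. On the X its genotype was given as y[1] and oc[R3.2]. For the second chromosome it listed the marker alleles cn[1], bw[1] and sp[1] together with CG33964[R4.2], Gr22d[1] and Gr22b[1]. For the third it listed lab[R4.2] and the alleles Rh6[1], GstD5[1], MstProx[1] and LysC[1]. ChIP and input thus share an allele of lab, which is 1 of the 8 genes of the complex. The stage label reads 0 to 8 h, whereas the collection protocol speaks of a laying of 8 to 16 h, and which of these holds is not known. A peak from whole embryos cannot be tied to a segment or a cell type.

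Hairy is a basic helix-loop-helix repressor that recruits the corepressor Groucho, and it is the product of a pair-rule gene, one of the genes that divide the early embryo into repeated units. The Antennapedia complex is a source of positional information at the same stages. lab, pb, Dfd, Scr and Antp are homeotic selector genes that give head and thoracic segments their identity: lab acts in the intercalary segment and midgut, pb in the adult mouthparts, Dfd in the mandibular and maxillary segments, Scr in the labial and the first thoracic segment, and Antp in the thorax. The cluster also holds 3 homeobox genes with early roles outside segment identity. zen patterns the dorsal side and the amnioserosa, bcd encodes the maternal anterior morphogen, and ftz is a pair-rule gene whose stripes broaden in hairy mutant embryos.

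The gene order was read from the RefSeq annotation of Release 6, where all 8 symbols were found in the order lab, pb, zen, bcd, Dfd, Scr, ftz and Antp. From lab to Antp that table lists 45 genes, of which 20 are protein-coding. The 7 cuticle protein genes of the Ccp84A cluster and Edg84A lie between lab and pb, zen2 between pb and zen, Ama between bcd and Dfd, and mir-10 between Dfd and Scr. The peaks are on Release 5, so none of its coordinates was used, and no peak below is assigned to a gene. Positions are given on Release 5 and run from the lab end, with low coordinates, to the Antp end. Which peaks lie at ftz or at any other single gene was not analysed here.

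Hairy peaks were denser in the Antennapedia complex than in any other window of its size laid end to end along 3R. The complex held 52 peaks, or 144 per Mb, whereas the 75 other windows held 1 to 49, with a median of 26 and quartiles of 16.5 and 33.5. The nearest to it, from 24800001 to 25160000, held 49. The window that adjoins the complex on the lab side held 20 peaks and the window on the Antp side 38. The complex carried 2.64% of the peaks of the arm. This rank depends on where windows begin. Among 1336 mutually overlapping windows of 360 kb, moved along the rest of 3R in steps of 20 kb, 21 held more peaks than the complex and 4 held as many, in 5 separate stretches with at most 59 peaks. Among the 261 windows of 2L, 2R, 3L and 3R together, 11 held more. With 1 list for the whole series, no count here has a replicate error. Neighbouring peaks are not independent either, so the ranks are a description and no test was made.

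**Figure D1:**
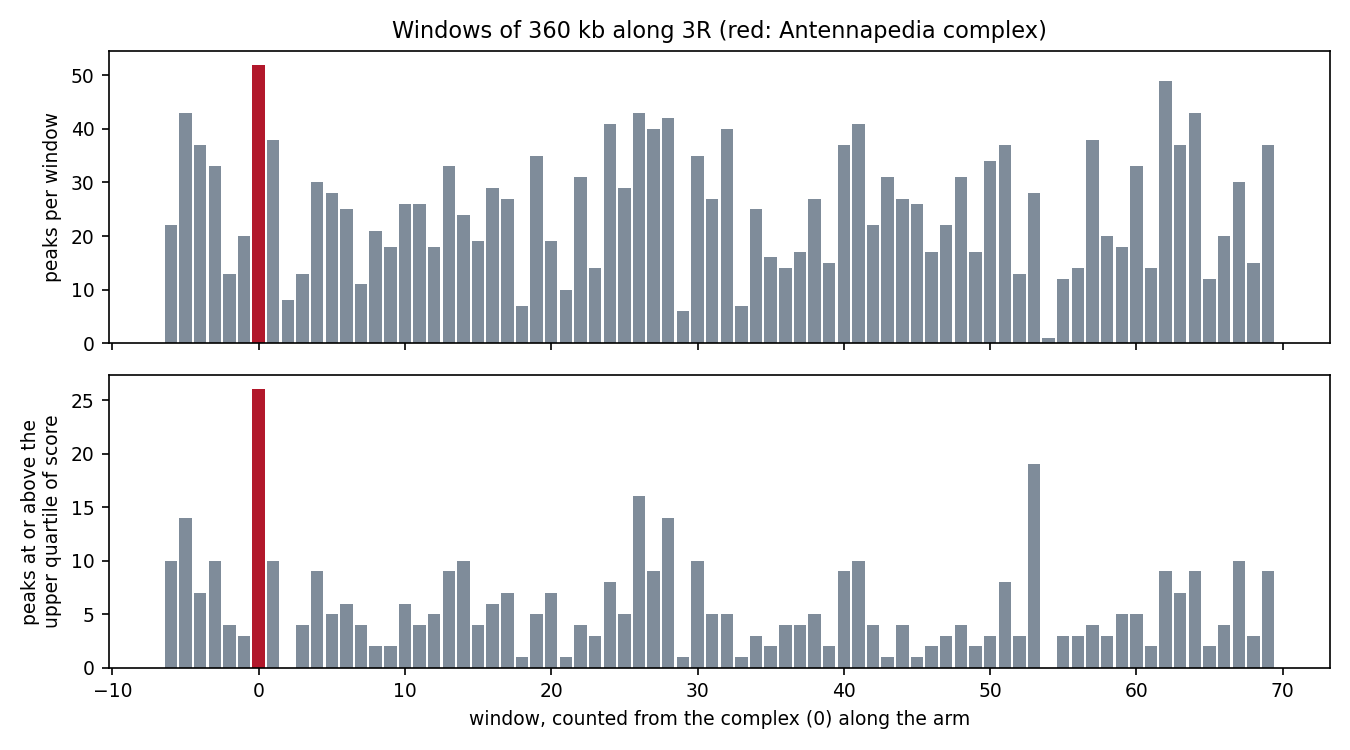
Peaks per 360 kb window along 3R (top) and, of these, the peaks that scored at or above 18.47, the upper quartile of the whole list (bottom). Each bar is 1 window, numbered from the complex, which is drawn in red at 0 with 52 peaks and 26 strong ones; the highest grey bars reach 49 and 19.

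The median score of the complex was also above that of the other peaks of the arm. Scores are those the authors deposited, on a scale the list leaves unnamed, and they are set only against other scores of the same list. The median score was 18.27 in the complex (quartiles 12.8 and 27.9, range 7.58 to 127.98), against 12.85 for the 1919 other peaks of 3R (quartiles 10.2 and 17.3, range 5.93 to 430.92). Of the 74 other windows with at least 5 peaks, 73 had a lower median score, and their median was 12.7. In the complex 26 of 52 peaks, or 50.0% (95% Clopper-Pearson interval 35.8 to 64.2), were at or above 18.47, the upper quartile of the whole list, against 21.8% of the other 3R peaks. No other window of 3R held more than 19 such peaks, and the median was 4. As a share of its own peaks, 1 window was above the complex. It ran from 21560001 to 21920000, where 19 of 28 peaks, or 67.9%, were at or above the upper quartile, and the median share over the 74 windows was 19.8%. The complex kept the highest count of such peaks among the overlapping windows and among the windows of all 4 large autosomal arms. Weak peaks were few. Only 5 members, or 9.62% (3.20 to 21.0), were at or below the lower quartile of 10.36, against 26.4% of the other 3R peaks. Intervals cover counting error only and treat peaks as independent, and the depth of the libraries is unknown.

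Most strong peaks of the complex were of moderately high score. In the complex 14 peaks, or 26.9% (15.6 to 41.0), were in the top 10% of the list (27.47 and above), against 7.5% of the other 3R peaks. A single member, or 1.92% (0.0487 to 10.3), was in the top 1% (74.97 and above), against 0.834%, which lies inside that interval. The window from 21560001 to 21920000 also held 14 peaks of the top 10%, and 10 of these were in the top 1%. Its strong peaks were packed into a short stretch, and those of the complex extended further. Some strong peaks of the complex were close too, since the smallest spacing was 1.95 kb there and 2.10 kb in the other window. The 14 strong peaks of the complex extended over 336 kb, from 2490834 to 2826958, fell in 10 of 18 bins of 20 kb and had a median spacing of 25.8 kb. In the other window they lay within 57.8 kb, fell in 3 bins and had a median spacing of 3.29 kb.

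**Figure D2:**
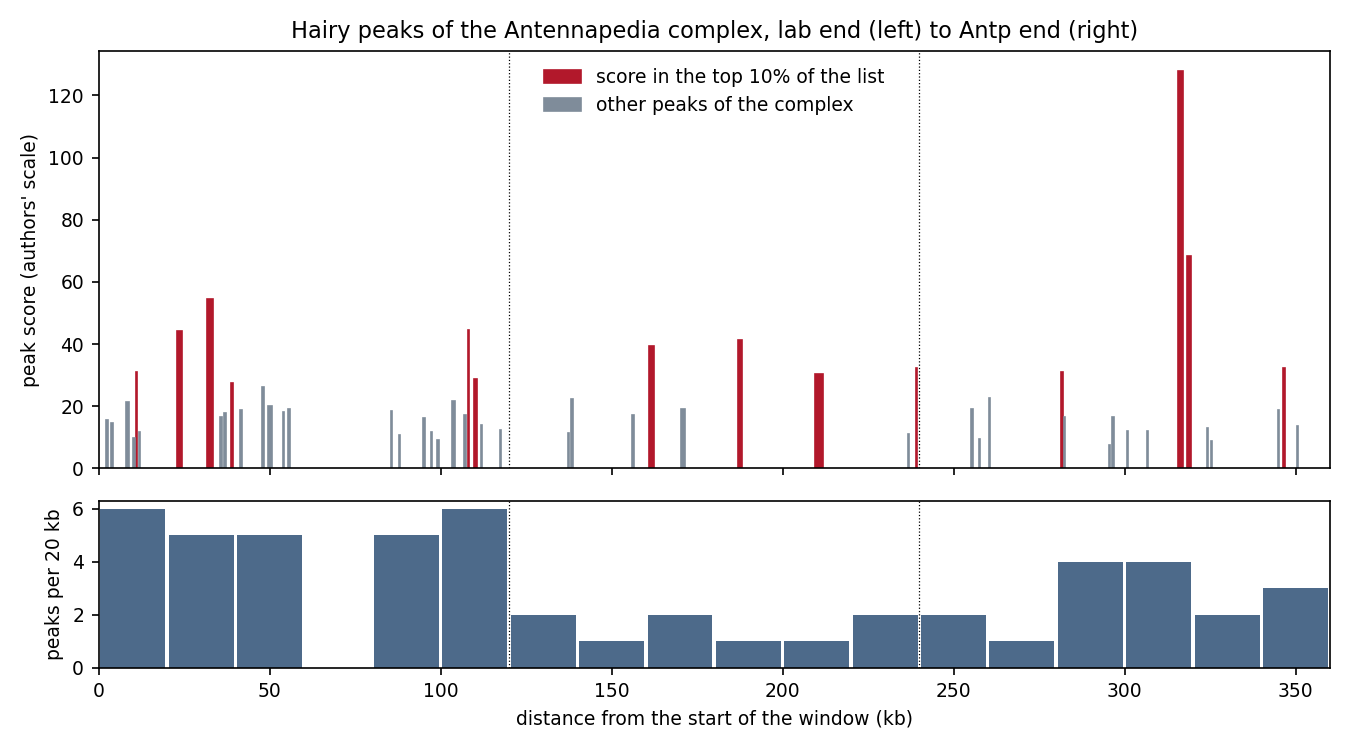
The 52 Hairy peaks by distance from the start of the window in kb, with score as height and peak width as bar width, outlined so that narrow peaks can be seen (top), and the number of peaks per 20 kb (bottom). The 14 peaks of the top 10% (red) run through the window, the highest at 127.98 near the Antp end; dotted lines mark stretches of 120 kb, which held 27, 9 and 16 peaks from left to right.

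The strongest peak of the complex lay toward the Antp end, at 2795558 to 2797172. It scored 127.98 and was 1615 bp wide, the 9th highest score on 3R and the 24th in the list. The next, at 2798250 to 2799323, scored 68.37 and was 1074 bp wide, so the 2 highest scores of the complex stood side by side, 1077 bp apart. The third and the fifth stood near the lab end. The peak at 2511781 to 2513537 scored 54.59 over 1757 bp, and that at 2502925 to 2504416 scored 44.35 over 1492 bp. Between them in rank was a narrow peak of 467 bp at 2587964 to 2588430, which scored 44.57. The middle of the window gave the sixth and seventh scores, 41.38 at 2666967 to 2668025 and 39.40 at 2640984 to 2642311. Peaks at 2718926 to 2719264 and 2826415 to 2826958 tied at 32.36, and peaks at 2490834 to 2491300 and 2761409 to 2761951 tied at 30.94. The 10 highest scores, with this last tie 11 peaks, thus came from the lab end, the middle and the Antp end. The 120 kb stretches at these places held unequal numbers of peaks, 27, 9 and 16.

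The complex was covered by peaks to a larger extent than all but 1 of the other windows. Peaks covered 8.85% of it, against a median of 3.32% in the 75 other windows (range 0.09 to 9.995%). The exception was again the window from 21560001 to 21920000. The median width was 476.5 bp in the complex (quartiles 314 and 653.5, range 213 to 2373) and 366 bp for the other peaks of 3R (quartiles 266 and 571, range 201 to 5425). Of the 74 other windows, 71 had a lower median width. In the complex 10 of 52 peaks, or 19.2% (9.63 to 32.5), were at least 1 kb wide, against 8.34% of the other 3R peaks. The widest was the peak of 2373 bp at 2689394 to 2691766, which scored 30.45. It was followed by the peaks of 1757, 1615 and 1492 bp named above and by the peak of 1328 bp at 2640984 to 2642311. All 10 wide peaks scored 18.98 or more and 8 of them were in the top 10%. The 42 narrower ones had a median score of 16.57, and 6 of them were in the top 10%. Of all other 3R peaks, 7.5% were in the top 10%. The share among the wide peaks elsewhere on 3R was not counted, so these counts are not shown to be particular to the complex.

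Width and score are not separate evidence here. Across the 52 peaks they correlated with a Spearman rho of 0.72, against 0.66 across the other 1919 peaks of 3R, given as a description because peaks of 1 library set share its depth and are not replicates. When only peaks at or above the list's median score of 13.2 were kept, the median width was 584.5 bp in the complex and 543.5 bp for the median of the windows, and 44 of 66 windows were lower. The width of the complex was then no longer near the top of the arm. When peaks within 500 bp of each other were joined, 60 of 73 windows had a lower median width.

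**Figure D3:**
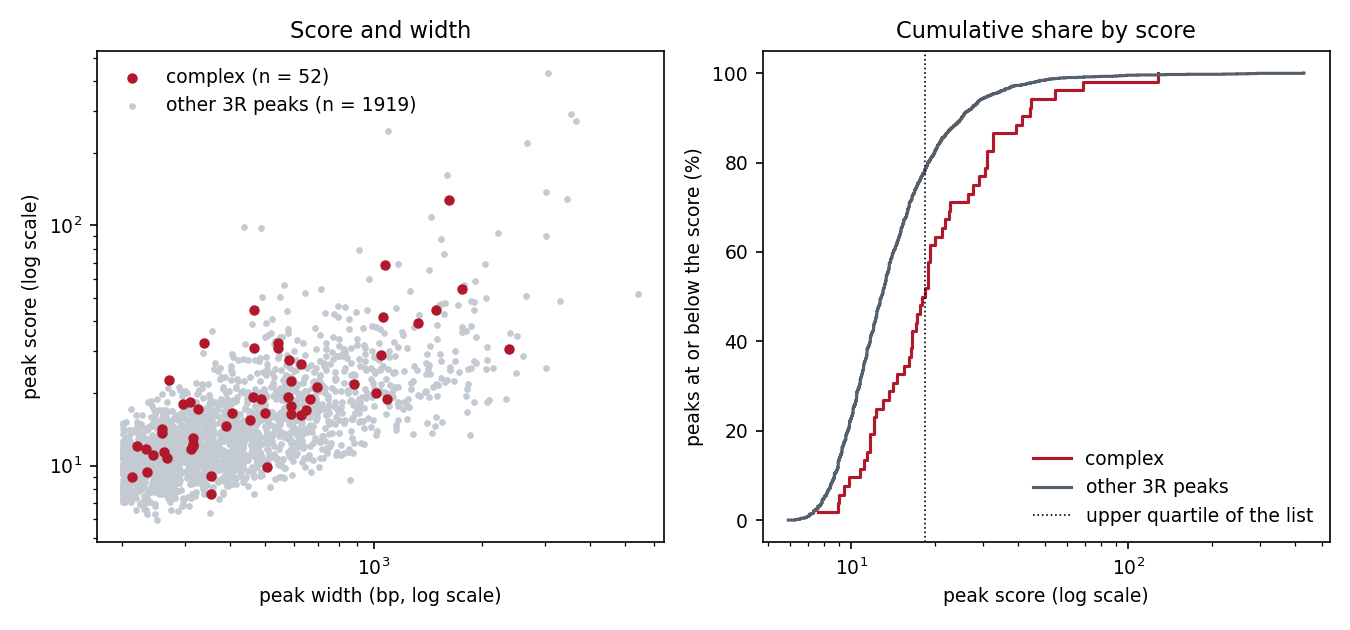
Left, score against width (both on log scales) for the 52 peaks of the complex in red and the 1919 other 3R peaks in grey. Right, the share of peaks at or below each score, with the upper quartile of the list, 18.47, as a dotted line; the curve of the complex lies to the right of that of the other 3R peaks over most of the range, with medians of 18.27 and 12.85.

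Peaks of the complex were spread along it, and its longest empty stretch was shorter than that of most other windows. The median spacing between neighbouring midpoints was 3554 bp, and the median over the 74 other windows was 5403 bp, with 15 of them closer spaced. In the complex 96.2% of the peaks had another within 10 kb between midpoints, and 71 of 74 windows had a lower share. Within 1 kb the order was the other way. The share was 13.5% in the complex and 26.5% for the median window, and 58 of 74 windows had a higher share. Among peaks at or above the list's median score this order turned round, with 10.5% in the complex and 0% for the median window. The lower share of close neighbours thus does not hold for the stronger peaks. Of these the complex held 38 and the median window 11, and windows of like count were not compared for them. The longest stretch without a midpoint was 29958 bp in the complex, against a median of 87982 bp, and 1 of the 75 other windows had a shorter one. Of the 18 bins of 20 kb, 1 was empty in the complex, whereas the other windows had 1 to 17 empty bins and a median of 9.

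Spacing and count are tied, since more peaks in the same length stand closer together. Beside the 9 windows with 40 to 49 peaks, a comparison chosen after the values were seen, the median spacing of the complex was not at either end of the order. It was 3554 bp in the complex and 4558 bp for the median of the 9, of which 3 were closer spaced. In the same comparison 8 of the 9 had a longer empty stretch, all 9 had a lower share of peaks with a neighbour within 10 kb, and 6 had a higher share with one within 1 kb. All 9 had a lower median score (12.1 to 17.0) and a lower median width (336 to 417 bp). The share within 10 kb, the score and the width were thus at the top of this order, and the median spacing and the share within 1 kb were not at either end.

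**Figure D4:**
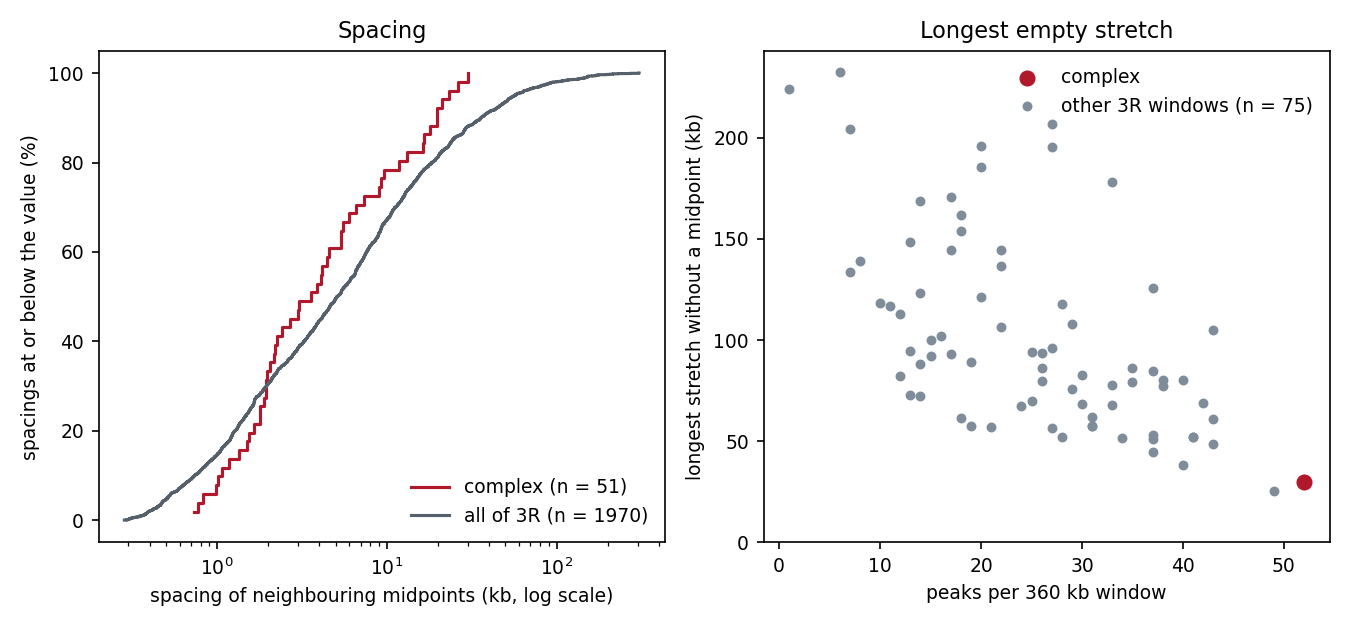
Left, the share of spacings between neighbouring midpoints at or below each value in kb (log scale), for the complex in red and all of 3R in dark grey; the medians were 3554 and 5064.5 bp and the longest spacing in the complex was 29958 bp. Right, the longest stretch without a midpoint in kb against the number of peaks. Points are the complex and the 75 other 360 kb windows of 3R. The complex held the most peaks, and 1 other window, with 49 peaks, had a shorter stretch.

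Along the complex, peak number was highest at the lab end and lowest in the middle. The 120 kb at the lab end held 27 peaks, which covered 13.6% of it. The middle 120 kb held 9 and the 120 kb at the Antp end held 16, with a coverage of 6.34% and 6.61%. Among the 227 other windows of 120 kb on 3R, which had a median of 8 peaks, none held more than the lab end and 1 held as many. In the same windows 88 held more peaks than the middle of the complex and 21 more than its Antp end. The middle was thus an ordinary stretch of 3R by count. By score it was not, since its median of 22.45 was above that of 157 of the 158 windows with at least 5 peaks, although it rests on 9 peaks. At the lab end the median score was 18.07 and at the Antp end 16.57, against 12.9 for the median window. The median width was 505 bp at the lab end, 588 bp in the middle and 378.5 bp at the Antp end, above 146, 151 and 89 of the 158 windows, so the Antp end was ordinary by width. This division was also chosen after the values were seen.

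Peaks were grouped where the gap from the end of one to the start of the next was at most 5 kb. The 52 peaks then fell into 19 groups, of which 8 had 3 or more peaks and held 36 peaks in all, 5 were pairs and 6 were single peaks. The median gap was 2786 bp in the complex and 4555 bp over all of 3R. Other windows were not grouped, so the groups are not shown to be particular to the complex. From the lab end, the first group had 6 peaks from 2482166 to 2491958, with scores of 9.85 to 30.94. After the single peak that scored 44.35 came 5 peaks from 2511781 to 2521886, with scores of 16.44 to 54.59 and a coverage of 41.4%, the highest of the 8 groups. A further 4 peaks lay from 2527816 to 2535896, all of them between 18.07 and 26.37. The longest gap of the complex followed, 29.6 kb from the peak at 2535435 to 2535896 (score 19.25) to the peak at 2565470 to 2565778 (18.47). This peak opened a pair that ended at 2568015.

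The group with most peaks came next. It had 8 peaks from 2574909 to 2592157, with scores of 9.03 to 44.57. Beyond it the peaks thinned out. A single peak at 2597370 to 2597684 (12.29) and pairs at 2617258 to 2618696 and 2636089 to 2642311 led into 3 wide peaks that each stood alone. These were the peak of 1091 bp at 2650315 to 2651405 (18.98), the peak of 1059 bp at 2666967 to 2668025 (41.38) and the widest peak, at 2689394 to 2691766. The gaps on both sides of the widest peak, 21.4 kb toward the lab end and 25.03 kb toward the Antp end, were the third and the second longest of the complex.

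Toward the Antp end, pairs and small groups alternated with gaps. A pair from 2716799 to 2719264 was followed by 3 peaks from 2735048 to 2740635, with scores of 9.44 to 22.68. The pair from 2761409 to 2762611 was the closest of the complex, with 256 bp between peaks that scored 30.94 and 16.57. Another 3 peaks lay from 2775441 to 2780989, among them the lowest score of the complex, 7.58, and a single peak of 12.04 lay at 2786682 to 2786901. The group of 4 from 2795558 to 2805466 held both the highest scores of the complex and 2 of its weaker peaks (13.03 and 8.97). The last group had 3 peaks from 2824791 to 2830666, with scores of 18.85, 32.36 and 13.71.

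The complex was bordered by a long stretch without Hairy peaks on the lab side and by a much shorter one on the Antp side. Its first peak, at 2482166 to 2482618, scored 15.47, and the nearest peak outside it on the lab side, at 2358511 to 2358769, scored 10.46 and lay 123.4 kb away. Of the 1970 gaps between neighbouring peaks of 3R, 28 were longer. Its last peak, at 2830408 to 2830666, scored 13.71, and the nearest peak outside on the Antp side, at 2862940 to 2863427, scored 11.08 and lay 32.3 kb away, with 219 longer gaps on the arm. The longest gap inside the complex, 29.6 kb, was nearly as long as the gap on the Antp side. A stretch without a peak is one where nothing passed the authors' threshold.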

How the data were processed

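The data were 1 list of peaks for the series of 4 libraries, and the list names no library. Its coordinates are those of FlyBase release 5 per the file headers, and MACS stands as the source in every line. The submitters' processing notes name the build BDGP5 and the tools MACS2, BWA and CASAVA (1.7.0.2, 1.7.0.3). How replicates were pooled, which control and threshold were applied and how duplicate reads were treated decide which peaks are listed, and they are not given in the sources used. The deposited score is the authors' and its scale is unnamed. The other deposited values are each peak's start and end, 1-based and inclusive. Groups came from the sample titles. The files hold no value per library, so ChIP and input were not compared.

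Membership went by midpoint. Full windows of 360 kb were laid out in both directions from the start of the complex, up to the last peak of 3R. Medians of width, spacing and score were taken over windows with at least 5 peaks. Named peaks were the 10 highest scores, the 5 widest, the peaks beside the longest gap, the closest pair, the first and last peak, the nearest outside on each side, and the groups of 3 or more. The other single peaks and pairs, and the gaps beside the widest peak, were named after their values were seen. The members and this rule were chosen with earlier results of these data known. The planned assignment of peaks to genes and the planned search of promoters were not run, because the annotation at hand is of Release 6 and no sequence was used. The upper-quartile shares and all alternatives for counts of strong or wide peaks, neighbour shares and empty stretches were added later. The window functions were tested on simulated peak lists and recovered the known counts in 20 of 20 runs. Tools were scipy 1.17.1, pandas 2.3.3 and numpy 2.4.6 under Python 3.11.15, with matplotlib 3.10.9 for the figures.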

Additional observations from a re-analysis of the deposited data

How the results depend on the processing

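No paired analysis was possible because ChIP and input replicates are not separate in the list, and leaving out a replicate could not be tried either. Values below are shares of other windows that lay below the complex, recomputed for 13 measures with windows from base 1, overlapping windows, windows of 4 arms, peaks within 500 bp joined, peaks at or above the list's median score, 20 kb taken off each end (43 peaks left), membership by any overlap, and, added after seeing the data, the 9 windows of like count. The 120 kb stretches and the spread of the top 10% peaks were not recomputed. The share with a neighbour within 1 kb changed its side of the median window, from 21.6% to 60.6% for the stronger peaks; with joined peaks it was 0%, where 59 of 73 windows were also at 0, and with like counts 33.3%. The other 12 measures kept their side. For peak number the values ran from 95.4% to 100%, for coverage from 98.5% to 100% (like counts), and for the count at or above the upper quartile they were 100% throughout. That share of peaks gave 98.6%, but 90.9% for stronger peaks and 100% with like counts. Counts in the top 10% and of 1 kb or wider gave 98.7% each, and 100% with joined peaks and like counts. Median width gave 95.9%, but 82.2% joined, 66.7% for stronger peaks and 100% with like counts. Median score gave 98.6%, but 87.9% for stronger peaks and 100% with like counts. Median spacing gave 20.3%, with 5.48% joined and 10.6% for stronger peaks, but 24.3% from base 1, 23.9% overlapping, 24 of 80 windows with the ends off and 33.3% with like counts. Neighbours within 10 kb gave 95.9%, but 86.2% with the ends off and 100% with like counts. The longest stretch gave 1.33%, with 0% from base 1 and for stronger peaks and 11.1% with like counts, and empty bins gave 0% to 1.15%. Groups of 3 or more peaks numbered 4 with gaps of at most 2 kb and 7 with gaps of at most 10 kb, against 8. The cause of these shifts was not tested, and the depth behind the list is unknown.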

Other observations

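In 4 places, of 51 gaps in the complex, the gap between 2 peaks was under 500 bp, and the 2 scores differed. The share of such gaps over 3R was not counted. The lower quartile of the gaps was 1169.5 bp in the complex and 1020 bp over all of 3R. Score differences of other neighbours were not compared, so those below are not shown to be particular to close peaks or to the complex. Beside the pair at 2761409 to 2762611, a weak peak of 9.85 lay 339 bp before a peak of 30.94, which was followed after 425 bp by a peak of 11.72, all within the first group at the lab end. In the group of 8, a peak of 17.11 at 2586887 to 2587536 lay 427 bp before the peak of 44.57. Whether such neighbours are separate sites or pieces of 1 region was not tested, and joining them left 48 peaks in the complex.

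The complex had higher scores than the windows on both sides of it. The median score was 18.27 in the complex, against 13.86 on the lab side and 12.76 on the Antp side. In the complex 26 of 52 peaks (50.0%) were at or above the upper quartile of the list, against 3 of 20 (15.0%) on the lab side and 10 of 38 (26.3%) on the Antp side. Over all other 3R peaks the share was 21.8%.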
